A study of Rattus norvegicus with 6 samples.

Results

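The genes described here supply the renal cortex with pentose phosphates and with NADPH. The list names 8 rat genes: Pgd, Tkt, Taldo1, Pgls, Rpia, H6pd, Me1 and Idh1. A gene was measured where a non-control probe of the array carried a RefSeq transcript accession of that gene, and the probe with the highest mean signal stood for it. On this basis 7 of the 8 genes were measured, of 11748 genes tested in all, and Pgd was matched to no probe here. The filter on dim probes removed none of the 13 probes of the 7 genes, and the brightest probe of each gene was well above background on all 6 arrays.

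Male Sprague-Dawley rats, bought at 5 weeks of age, gave 6 samples of renal cortex RNA, each hybridised to its own single-colour oligonucleotide array. The treated group (n = 3) was given 2-amino-4-nitrophenol, known as a dye ingredient, at 750 mg/kg/day for 4 weeks. The control group (n = 3) was given corn oil over the same 4 weeks. Both groups ate the same basal diet, and per the labels each group is 3 animals. The comparison asks which transcripts of the pathway differed between dosed and corn oil rats.

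The pentose phosphate pathway draws glucose 6-phosphate away from glycolysis. Its oxidative branch yields NADPH and ribulose 5-phosphate, and its non-oxidative branch returns sugar phosphates to glycolysis or supplies ribose for nucleotides. NADPH is also made by the cytosolic malic enzyme Me1, by the isocitrate dehydrogenases and by folate enzymes, and it is spent on glutathione and thioredoxin reduction, quinone and carbonyl reduction and lipid synthesis. Several of these genes, among them Tkt, Taldo1, Me1, Pgd and Idh1, are known targets of the transcription factor NRF2, which acts through antioxidant response elements.

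Values are log2 signals minus the log2 of the 75th percentile of the same array, so 0 is that percentile, and a change is treated minus corn oil on that scale. The 75th percentile itself was 564 to 685 intensity units on treated arrays and 743 to 852 on corn oil arrays, and no probe was saturated. Well above background were 61.6% to 66.3% of non-control probes on treated arrays and 68.1% to 70.9% on corn oil arrays. Treated replicate 2 was the lowest of the 6 arrays on both measures, at 564 and 61.6%. Slide 2 held corn oil replicate 2 alone, and slide 1 the other 5 arrays. The labelled tissue showed its markers: all 6 proximal tubule markers were well above background on every array. Their changes ran from -0.52 to 0.19: Slc34a1 and Slc22a6 were higher without overlap (0.19 and 0.14), Lrp2 was lower without overlap (-0.34), and Cubn (-0.52), Slc5a2 (-0.15) and Slc22a8 (0.06) overlapped. In cortex as a whole, fewer cells of a type and less RNA per cell cannot be told apart.

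Of the 7 genes, Me1 and Tkt differed most, 2.25-fold and 1.65-fold higher in treated rats, and their treated arrays lay above all corn oil arrays. Pgls and Taldo1 were also higher on every treated array, by 1.30-fold and 1.20-fold, while Idh1, H6pd and Rpia overlapped between the groups. None of the 7 passed the test over all genes (limma, Benjamini-Hochberg adjusted p under 0.05), a threshold that 3 genes passed, 0.0255% of those tested. At an adjusted p under 0.1, 0 of the 7 passed, beside 1.12% of all genes. At an unadjusted p under 0.05, 4 of the 7 were higher and 0 lower, beside 14.3% of all genes higher and 7.29% lower. The groups did not overlap for 4 of the 7, all higher, beside 20.1% of all genes higher and 10.1% lower. The median log2 change was 0.32 over the 7 genes and 0.04 over all genes tested. That median differed with signal, from -0.12 in the lowest 10% of genes by mean signal to 0.23 in the highest 10%. The highest 10% holds Me1, Tkt, Taldo1 and Idh1. With quantile normalization the median over the 7 genes was 0.096 and 1 gene was higher at an unadjusted p under 0.05. With scaling on spike-in probes it was 0.0046, again with 1 gene higher, while the median of all genes was -0.28.

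**Figure D1:**
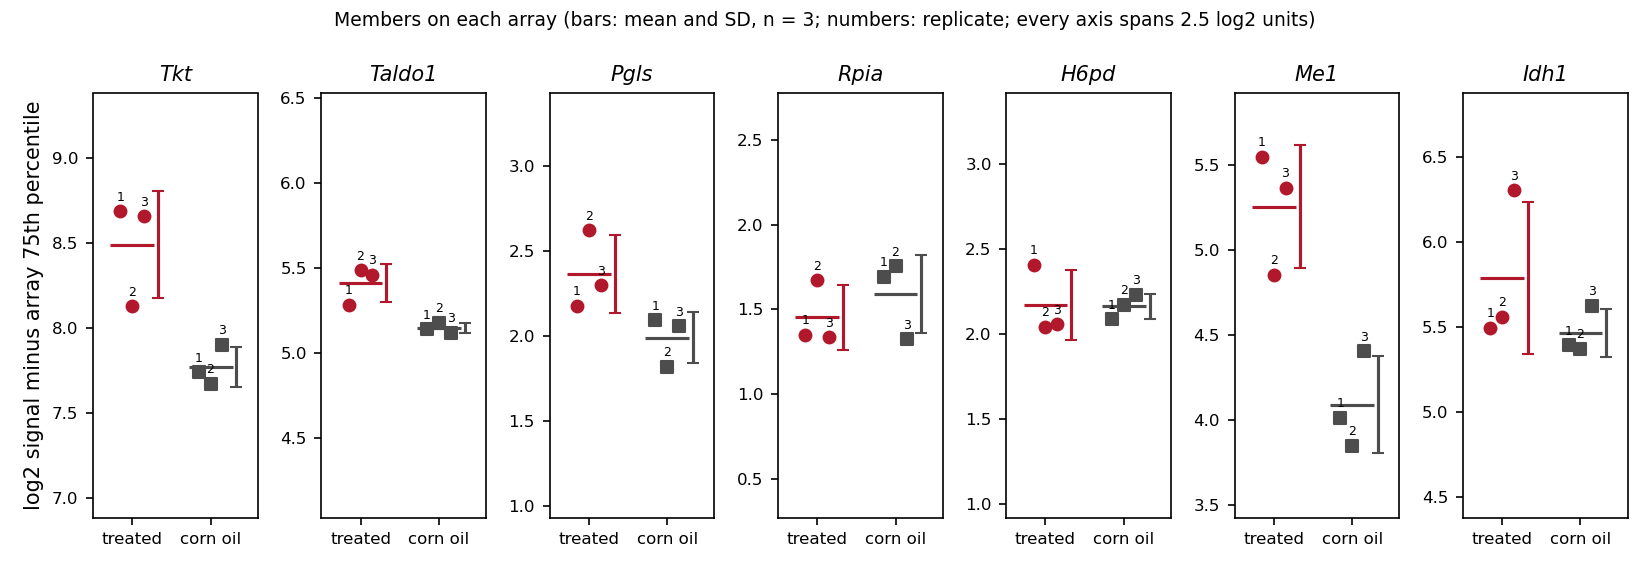
Log2 signal minus the array's 75th percentile (vertical axis, each panel spanning the same log2 range) for the 7 measured genes, with treated arrays (red circles) left of corn oil arrays (grey squares); bars give mean and SD, n = 3, and small numbers the replicate. Me1, Tkt, Pgls and Taldo1 have no overlap between the groups, and Idh1 has 1 treated array, at 6.30, above the rest.

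Upstream sequence is shown for 4 genes: Me1, Tkt and Idh1, the measured genes that hold the core of an antioxidant response element in the window searched, and Rpia, which had the lowest change. Each window is 300 bases around a RefSeq start site of the GRCr8 assembly, most of it upstream, 5′ to 3′ on the gene's strand. Capitals mark the core TGANNNNGC, searched on both strands. The Me1 window is chr8:96540195-96540494 (minus strand), that of Tkt chr16:5729982-5730281 (plus strand), that of Idh1 chr9:74049425-74049724 (minus strand) and that of Rpia chr4:104307669-104307968 (minus strand).
Me1: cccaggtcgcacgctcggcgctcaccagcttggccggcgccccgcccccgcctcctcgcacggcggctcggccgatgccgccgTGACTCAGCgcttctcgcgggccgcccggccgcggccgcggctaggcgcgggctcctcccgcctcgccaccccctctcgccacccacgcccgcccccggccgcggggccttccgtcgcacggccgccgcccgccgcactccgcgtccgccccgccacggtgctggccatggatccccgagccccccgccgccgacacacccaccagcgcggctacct
Tkt: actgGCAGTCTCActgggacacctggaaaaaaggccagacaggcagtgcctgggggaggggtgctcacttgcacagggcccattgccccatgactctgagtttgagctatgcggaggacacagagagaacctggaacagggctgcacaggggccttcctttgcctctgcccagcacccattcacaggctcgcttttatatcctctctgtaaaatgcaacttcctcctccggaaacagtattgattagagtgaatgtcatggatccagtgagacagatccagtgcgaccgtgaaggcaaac
Idh1: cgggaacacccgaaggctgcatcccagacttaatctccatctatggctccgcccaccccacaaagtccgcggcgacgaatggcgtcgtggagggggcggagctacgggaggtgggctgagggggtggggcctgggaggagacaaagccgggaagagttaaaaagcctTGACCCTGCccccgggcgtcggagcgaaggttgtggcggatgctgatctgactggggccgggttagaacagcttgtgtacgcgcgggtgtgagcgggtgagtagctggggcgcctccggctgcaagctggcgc
Rpia: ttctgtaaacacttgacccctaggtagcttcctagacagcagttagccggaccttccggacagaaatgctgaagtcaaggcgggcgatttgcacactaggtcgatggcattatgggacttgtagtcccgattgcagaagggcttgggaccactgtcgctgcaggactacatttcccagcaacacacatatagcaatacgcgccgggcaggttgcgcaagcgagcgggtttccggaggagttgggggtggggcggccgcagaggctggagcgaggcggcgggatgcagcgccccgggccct

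The Me1 match reads TGACTCAGC and begins at -167 relative to the start site. Those exact letters, on either strand, were in 0.415% of the 33469 promoter windows of the table. These letters were picked from the Me1 window itself, so their low share is no support for a site. The exact letters of the Idh1 and Tkt matches were not counted in this way. The Idh1 match reads TGACCCTGC and begins at -83. The Tkt match lies on the opposite strand, at -246. The start sites of the Tkt and Idh1 windows lie 851 and 7968 bases inside the span of their genes, so other start sites of these genes were not searched. Windows of Taldo1, H6pd, Rpia and the unmeasured Pgd held no match to the core, and the table has no window for Pgls. The core is common: 40.5% of all windows held it, beside 3 of the 7 windows here. The GC box GGGCGG, on either strand, was in the windows of Pgd, Taldo1, Rpia, Me1 and Idh1, with 5 matches in Me1, and in 33.1% of all windows; matches of the GC box and of the core did not overlap in the windows printed. The E box CACGTG was in none of the 7 windows and in 6.42% of all. A match describes letters and is no evidence of binding.

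In the oxidative branch, Pgls encodes the lactonase that hydrolyses the product of the pathway's initial oxidation. Pgls stood at 2.18, 2.62 and 2.30 on treated replicates 1, 2 and 3, and at 2.09, 1.82 and 2.06 on corn oil replicates 1, 2 and 3. Every treated array was above every corn oil array, with the widest gap on treated replicate 2. The change was 0.38 ± 0.14 (SE, n = 3 per group; adjusted p = 0.210, limma), and 0.06 to 0.47 over all settings run. The 0.06 came with spike-in scaling. A single probe represented Pgls. Before scaling, its intensity was 3101, 3474 and 3083 on treated arrays and 3640, 2623 and 3306 on corn oil arrays, and the groups overlapped.

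H6pd encodes the hexose 6-phosphate dehydrogenase of the endoplasmic reticulum, which carries out the initial steps of an oxidative branch inside that organelle and feeds NADPH to Hsd11b1. H6pd had values of 2.41, 2.04 and 2.06 on treated replicates 1, 2 and 3, and 2.09, 2.17 and 2.23 on corn oil arrays. Treated replicate 1 was the highest of the 6 arrays, and the other treated arrays were the lowest. The change was 0.01 ± 0.12 (adjusted p = 0.984, limma), with a 95% interval from -0.29 to 0.30. The other probes of H6pd, both dimmer, gave -0.28 ± 0.15 and 0.19 ± 0.21, so its 3 probes did not share a direction.

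The partners of H6pd in the endoplasmic reticulum showed small differences. Hsd11b1, which uses this NADPH to regenerate active glucocorticoid, had 5.73, 5.91 and 5.999 on treated arrays and 5.58, 5.83 and 5.66 on corn oil arrays. These ranges overlapped, and the change was 0.19 ± 0.11 (adjusted p = 0.347, limma). Slc37a4, which carries glucose 6-phosphate into the organelle, had a change whose sign depended on the scaling: 0.12 ± 0.11, but -0.18 with quantile normalization and -0.20 with spike-in scaling.

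In the non-oxidative branch, Tkt encodes transketolase, which moves carbon pairs between sugar phosphates. Tkt stood at 8.69, 8.13 and 8.66 on treated arrays 1, 2 and 3, against 7.74, 7.67 and 7.90 on corn oil replicates 1, 2 and 3. All treated arrays were above all corn oil arrays, and treated replicate 2 was the closest to them. The change was 0.72 ± 0.17 (adjusted p = 0.130, limma), with a 95% interval from 0.31 to 1.13. Without treated replicate 2 the change was 0.90 and passed (adjusted p = 0.0465; range 0.0465 to 0.365 over 17 alternatives and the main setting). It was 0.40 both with quantile normalization and with spike-in scaling. Before scaling, the intensity of the Tkt probe was 281905, 157756 and 252934 on treated arrays and 182057, 151589 and 189644 on corn oil arrays, and the groups overlapped.

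Taldo1 encodes transaldolase, which works with transketolase in the same branch. Its values were 5.28, 5.49 and 5.46 on treated arrays 1, 2 and 3, and 5.14, 5.18 and 5.12 on corn oil arrays. The groups did not overlap, and the corn oil arrays differed little from each other (SD 0.03). The change was 0.27 ± 0.09 (adjusted p = 0.173, limma). Among the 10% of genes with the highest mean signal, which hold Taldo1, Tkt, Me1 and Idh1, the median change was 0.23. With quantile normalization the Taldo1 change was 0.05, and with spike-in scaling -0.05. Before scaling, the intensity of the Taldo1 probe was 26662, 25252 and 27582 on treated arrays and 29990, 26869 and 27578 on corn oil arrays. The groups then overlapped.

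Rpia encodes ribose 5-phosphate isomerase, which interconverts ribulose and ribose phosphates. Rpia stood at 1.35, 1.67 and 1.34 on treated arrays 1, 2 and 3, against 1.69, 1.75 and 1.32 on corn oil replicates 1, 2 and 3. The arrays of the groups interleaved. The change was -0.14 ± 0.15 (adjusted p = 0.629, limma), with a 95% interval from -0.51 to 0.24. With spike-in scaling it was -0.46, where the median of all genes was -0.28. Before scaling, the intensity of this probe was 1746, 1796 and 1583 on treated arrays. On corn oil arrays it was 2753, 2509 and 1988, so every treated array was then below every corn oil array. The other, dimmer probe of Rpia gave -0.31 ± 0.16, with values of 0.60, 0.61 and 0.57 on treated arrays and 0.99, 1.15 and 0.58 on corn oil arrays. At both probes corn oil replicate 3 was well below the other corn oil arrays.

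Outside the pathway, Me1 encodes cytosolic malic enzyme, which makes pyruvate and NADPH from malate. Me1 stood at 5.55, 4.85 and 5.37 on treated arrays 1, 2 and 3, against 4.01, 3.85 and 4.40 on corn oil replicates 1, 2 and 3. All treated arrays exceeded all corn oil arrays, and treated replicate 2 lay lowest among the treated. The change was 1.17 ± 0.22 (adjusted p = 0.113, 0.0685 to 0.312 over all settings run, limma), with a 95% interval from 0.63 to 1.71. The other probes of Me1 gave 1.06 ± 0.22 and 1.08 ± 0.22, and at each of its 3 probes the groups did not overlap. Before scaling, the intensity of the brightest Me1 probe was 32042, 16295 and 25859 on treated arrays and 13763, 10693 and 16791 on corn oil arrays, so treated replicate 2 was then just below corn oil replicate 3. The change was 1.05 with the slide as a block, 0.98 with quantile normalization and 0.85 with spike-in scaling.

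Idh1 encodes cytosolic and peroxisomal isocitrate dehydrogenase, which makes NADPH from isocitrate. Idh1 stood at 5.49, 5.56 and 6.30 on treated arrays 1, 2 and 3, against 5.39, 5.37 and 5.63 on corn oil replicates 1, 2 and 3. Treated replicate 3 was above all other arrays, and the other treated arrays were below corn oil replicate 3. The change was 0.32 ± 0.23 (adjusted p = 0.437, limma), with a 95% interval from -0.23 to 0.88, and 0.07 without treated replicate 3. It was 0.10 with quantile normalization and 0.0046 with spike-in scaling. The other probe of Idh1 had 4.38, 4.51 and 5.24 on treated arrays and 4.35, 4.34 and 4.53 on corn oil arrays, with the same array standing highest. Its change was 0.30 ± 0.23.

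**Figure D2:**
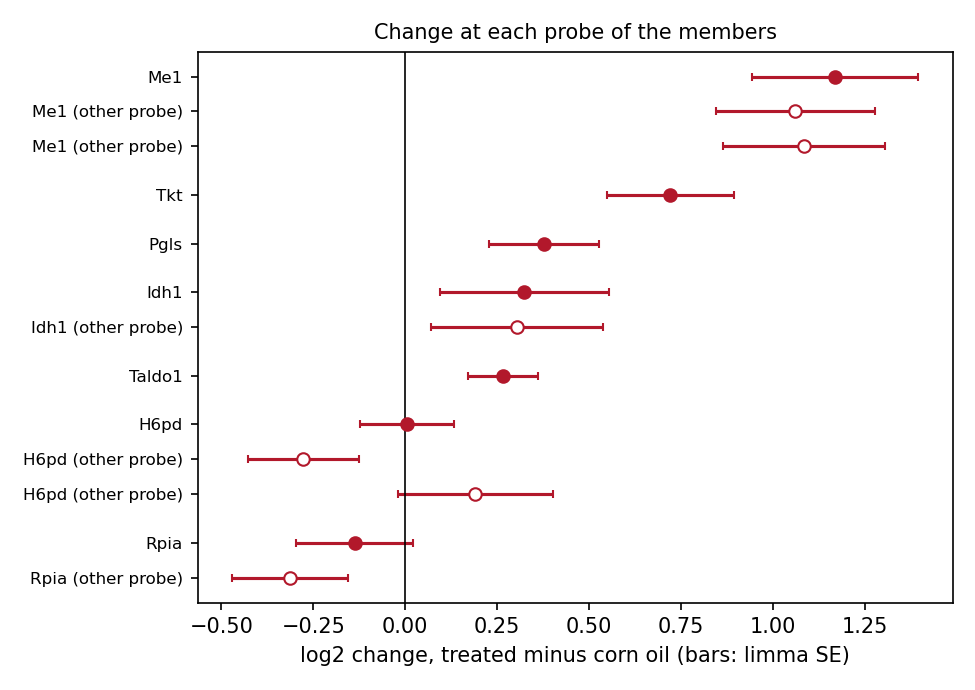
Log2 change, treated minus corn oil (horizontal axis), at each of the 13 probes of the 7 genes; filled points are the brightest probe of a gene, open points its other probes, and bars the limma standard error from a fit over all kept probes. The 3 probes of Me1 lie between 1.06 and 1.17, those of Idh1 at 0.30 and 0.32, and those of H6pd on both sides of 0.

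The genes did not share one pattern among the treated rats. Me1 and Tkt were lowest on treated replicate 2 of the treated arrays, where Pgls and Taldo1 were highest, and Idh1 stood out on treated replicate 3 alone. Over all genes tested, treated replicate 2 was the lowest treated array for 31.6%, and the highest for 5449 of 11748 genes. With every gene set to 0 at its corn oil average, the median over the 7 genes was 0.19, 0.34 and 0.32 in treated rats 1, 2 and 3, and -0.03, -0.09 and 0.07 in corn oil rats.

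Ratios between genes on the same array do not depend on a scaling that shifts all log2 values of an array alike, and show where genes differed unequally. Quantile normalization and normexp correction are not of that kind and can change these ratios. These pairs were picked with their values known and carry no test. Relative to the corn oil mean of the ratio, Me1 over Rpia was 1.70, 0.68 and 1.53 on treated arrays 1, 2 and 3, and -0.18, -0.41 and 0.58 on corn oil arrays. Me1 over Tkt was 0.55, 0.41 and 0.39 on treated arrays, against -0.04, -0.14 and 0.19 on corn oil arrays. For both ratios every treated array was above every corn oil array. Tkt over Taldo1 was 0.78, 0.02 and 0.57 on treated arrays, against -0.02, -0.13 and 0.16 on corn oil arrays, and here treated replicate 2 fell within the corn oil range.

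Markers of some other cells also differed on the same arrays, where 20.1% of all genes were higher and 10.1% lower without overlap. Of 4 tested erythroid markers, 3 were higher without overlap, and their median relative to corn oil was 1.73, 0.51 and 1.32 on treated arrays 1, 2 and 3, and 0.18, -0.22 and 0.0050 on corn oil arrays. Like Me1 and Tkt, this median was lowest on treated replicate 2 of the treated arrays. The summed erythroid signal was 258 to 382 times the 75th percentile on treated arrays and 139.6 to 201 times on corn oil arrays, mostly Hbb, and Hbb, Ahsp and Alas2 were well above background on all arrays. Markers of the proximal straight tubule had a median of 0.96, 0.98 and 1.70 on treated arrays, against 0.03, 0.26 and -0.37 on corn oil arrays, highest on treated replicate 3 as Idh1 was. Of these 3 markers, Slc22a7 and Slc7a13 were higher without overlap (2.39 and 1.21) and Slc5a8 was at -0.44 with overlap. Their summed signal was 24.0 to 39.2 times the percentile on treated and 10.8 to 16.6 times on corn oil arrays. Of 4 collecting duct markers, 3 were lower without overlap, and Aqp2, the brightest of the 4, was at 0.18 with overlap. The summed signal of the 4 was 149.9 to 198 times the percentile on treated and 184 to 197 times on corn oil arrays. The 4 tested leukocyte markers summed to 2.45 to 2.80 on treated and 2.57 to 2.80 on corn oil arrays. Cd68 and Ptprc were the brightest of them and overlapped (0.03 and -0.23). Of the dimmer markers, Cd79b was higher without overlap (0.81) and Cd3e was at -0.97 with overlap. Cd3e was well above background on only 1 treated array. Umod, a thick ascending limb marker, was higher without overlap (0.45), and Cldn16 of that list overlapped (0.35). Slc12a3, the only tested distal tubule marker, was lower without overlap (-0.53). In the intercalated cell, podocyte, endothelium and fibroblast lists, 0 markers were higher and 0 lower without overlap. The part of these cell types in the results for Me1, Tkt and Idh1 was not tested.

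**Figure D3:**
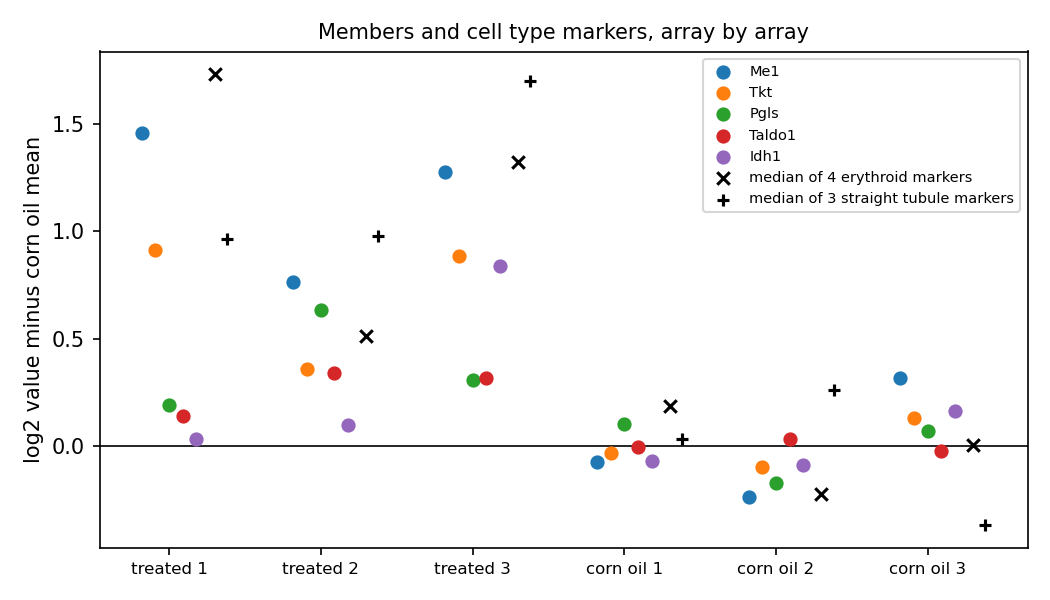
Log2 value minus the gene's corn oil mean (vertical axis) on each of the 6 arrays (horizontal axis) for 5 of the genes, with the median of the erythroid markers (crosses) and of the straight tubule markers (plus signs). Me1, Tkt and the erythroid median are lower on treated replicate 2 than on the other treated arrays, and Idh1 and the straight tubule median are highest on treated replicate 3.

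Other genes of the pathway were described as lists chosen with earlier results known, and in each of them 0 genes passed after adjustment over all genes. Their counts at an unadjusted p under 0.05 stand beside 14.3% of all genes higher and 7.29% lower. Of 8 tested genes of pentose and ribose phosphate metabolism, 1 was higher at an unadjusted p under 0.05 and 0 lower, near the 14.3% over all genes, and the median change was 0.13. That gene was Rbks, ribokinase, at 2.60, 2.85 and 2.84 on treated arrays and 2.48, 2.44 and 2.43 on corn oil arrays, with a change of 0.31 ± 0.10 (-0.01 with spike-in scaling). Rpe, the ribulose phosphate epimerase that stands beside Rpia in the pathway, had a change of -0.06 ± 0.14 (-0.38 with spike-in scaling). The transketolase-like genes Tktl1 and Tktl2 were not well above background on all arrays of either group and were not tested.

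Of 10 other genes that supply NADPH or its precursor, 4 were higher at an unadjusted p under 0.05 and 0 lower (14.3% and 7.29% of all genes), with a median change of 0.15. Mthfd2, a mitochondrial folate dehydrogenase, had -0.75, -1.39 and -0.21 on treated arrays 1, 2 and 3, and -2.29, -2.54 and -1.83 on corn oil arrays. Its change was 1.44 ± 0.33 (2.71-fold; adjusted p = 0.127, limma). Aldh1l1, the cytosolic formyltetrahydrofolate dehydrogenase, had 5.23, 4.17 and 5.07 on treated arrays and 4.02, 4.004 and 3.94 on corn oil arrays, a change of 0.83 ± 0.27. For both genes the groups did not overlap and treated replicate 2 was the lowest treated array. Without treated replicate 2, Aldh1l1 was at 1.16 and passed (adjusted p = 0.0231, limma). Its mitochondrial relative Aldh1l2 had a change of 0.52 ± 0.15 at its brightest probe, 0.20 with spike-in scaling and 0.05 with the mean over its probes (adjusted p = 0.839, limma). Nadk, the cytosolic kinase that makes NADP from NAD, had 2.40, 2.38 and 2.47 on treated arrays and 2.08, 1.91 and 1.97 on corn oil arrays, a change of 0.43 ± 0.08 with little spread among treated rats (adjusted p = 0.113, limma), and 0.11 with spike-in scaling.

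Idh2 and Nnt, also mitochondrial genes of the NADPH supply list, had smaller changes than Mthfd2. Idh2, the mitochondrial isocitrate dehydrogenase, had 7.46, 7.75 and 7.48 on treated arrays and 7.34, 7.53 and 7.41 on corn oil arrays. The ranges overlapped, and the change was 0.14 ± 0.11, with -0.17 with quantile normalization and -0.18 with spike-in scaling. Nnt, the transhydrogenase of the inner membrane, had 4.66, 4.48 and 4.40 on treated arrays and 4.52, 4.57 and 4.62 on corn oil arrays, a change of -0.06 ± 0.10 (-0.25 with quantile normalization and -0.38 with spike-in scaling). The 95% intervals ran from -0.14 to 0.41 for Idh2 and from -0.29 to 0.18 for Nnt.

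Among 13 tested enzymes that use NADPH, 5 were higher at an unadjusted p under 0.05 and 0 lower (14.3% and 7.29% of all genes), and the median change was 0.17. Nqo1, a quinone reductase, had 1.53, -1.35 and 0.90 on treated arrays and -2.58, -3.18 and -3.47 on corn oil arrays. Its groups did not overlap, treated replicate 2 was far below the other treated arrays, and the change was 3.44 ± 0.74 (adjusted p = 0.122, and 0.0231 without treated replicate 2, limma). Blvrb, a biliverdin and flavin reductase, had a change of 0.83 ± 0.10 (adjusted p = 0.0799, limma), and it passed after normexp correction (0.0495), with trend and robust settings (0.0352) and without treated replicate 2 (0.0454). Nox4, the NADPH oxidase of renal tubules, had 2.10, 1.83 and 1.95 on treated arrays and 1.45, 1.50 and 1.69 on corn oil arrays, a change of 0.41 ± 0.11 (0.09 with spike-in scaling). Akr1a1, an aldehyde reductase, had a change of 0.27 ± 0.10, which was -0.01 with quantile normalization and -0.05 with spike-in scaling. Gsr, glutathione reductase, had 1.57, 1.07 and 1.53 on treated arrays and 1.00, 0.97 and 1.07 on corn oil arrays, a change of 0.37 ± 0.15 (0.05 with spike-in scaling). Txnrd1, thioredoxin reductase, had 1.88, 1.14 and 1.59 on treated arrays and 1.19, 1.07 and 1.26 on corn oil arrays, a change of 0.37 ± 0.19 (0.05 with spike-in scaling). For both reductases treated replicate 2 lay within the corn oil range, and the other treated arrays lay above. Treated replicate 2 was the lowest treated array for 9 of these 13 genes and for 7 of the 10 genes of NADPH supply, beside the 31.6% of all genes.

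Of 15 tested genes around glucose 6-phosphate, 2 were higher at an unadjusted p under 0.05 and 0 lower, near the 14.3% over all genes, and the median change was 0.10. Slc2a1, the glucose transporter GLUT1, had a change of 0.34 ± 0.11 (0.02 with spike-in scaling), and Fbp1, fructose bisphosphatase of gluconeogenesis, of 0.28 ± 0.09 (-0.04 with spike-in scaling). Of 9 genes that move citrate and malate between mitochondria and cytosol, 3 were higher and 0 lower (14.3% and 7.29% of all genes). These were Mdh1, cytosolic malate dehydrogenase (0.34 ± 0.09), the oxoglutarate carrier Slc25a11 (0.33 ± 0.09) and the citrate carrier Slc25a1 (0.23 ± 0.09; -0.09 with spike-in scaling), with adjusted p from 0.139 to 0.203 (limma). Mdh1 was at 0.12 with quantile normalization and 0.03 with spike-in scaling, and Slc25a11 at 0.12 and 0.01. The groups did not overlap for any of the 3, and the list's median change was 0.15.

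**Figure D4:**
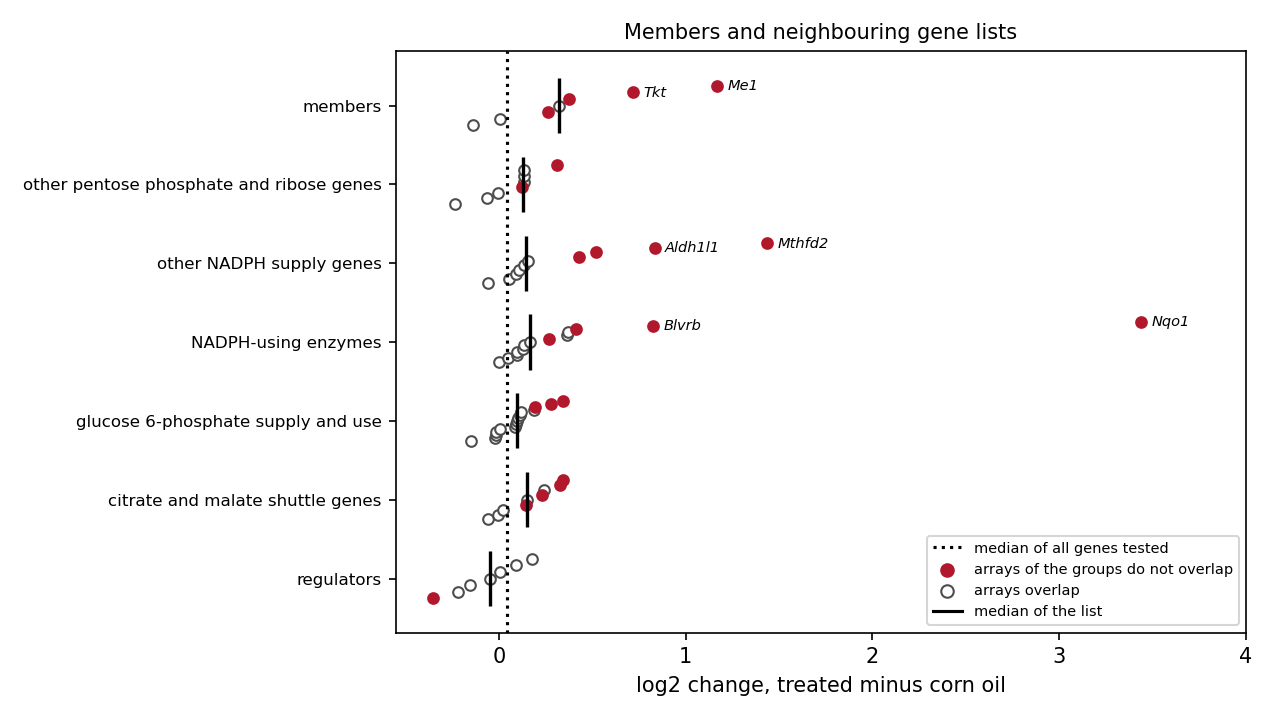
Log2 change, treated minus corn oil (horizontal axis), of each tested gene in the list of 7 and in 6 neighbouring lists (rows); filled points mark genes whose arrays do not overlap between the groups, thick lines the list median and the dotted line the median of all genes, 0.04. Me1, Mthfd2, Aldh1l1, Blvrb and Nqo1 lie farthest to the right, and Mlxipl is the filled point left of 0.

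Among 7 tested regulators, 1 was lower (Mlxipl) and 0 were higher by the unadjusted test (7.29% and 14.3% of all genes). Nfe2l2, which encodes NRF2, had 3.90, 3.78 and 3.86 on treated arrays and 3.83, 3.86 and 3.82 on corn oil arrays. Its change was 0.01 ± 0.07, with a 95% interval from -0.18 to 0.19, and -0.16 with quantile normalization or -0.31 with spike-in scaling. Mlxipl, which encodes the carbohydrate response factor ChREBP, had -0.61, -0.62 and -0.64 on treated arrays and -0.42, -0.28 and -0.12 on corn oil arrays. All treated arrays were below all corn oil arrays, and the change was -0.35 ± 0.10 (adjusted p = 0.146, limma), and -0.67 with spike-in scaling.

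The mean of the 7 genes' centred values over the 6 arrays was compared with the profiles of other genes. It was most like those of Lmna (nuclear lamin, Pearson r = 0.998), Gsta1 (a glutathione transferase, 0.996), Tmem205 (0.996), Bnip3 (a mitophagy receptor, 0.994) and Ptges3 (a co-chaperone, 0.992). Genes that differed more, such as Me1, weigh more in this mean, and the 7 genes did not share one pattern. These were the highest values among 11741 other genes, of which 472 had an r above 0.9. A correlation over 6 arrays is imprecise, and these genes carry no test. The changes of these genes were 0.30 for Lmna, 0.80 for Gsta1, 0.88 for Tmem205, 0.58 for Bnip3 and 0.23 for Ptges3.

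**Figure D5:**
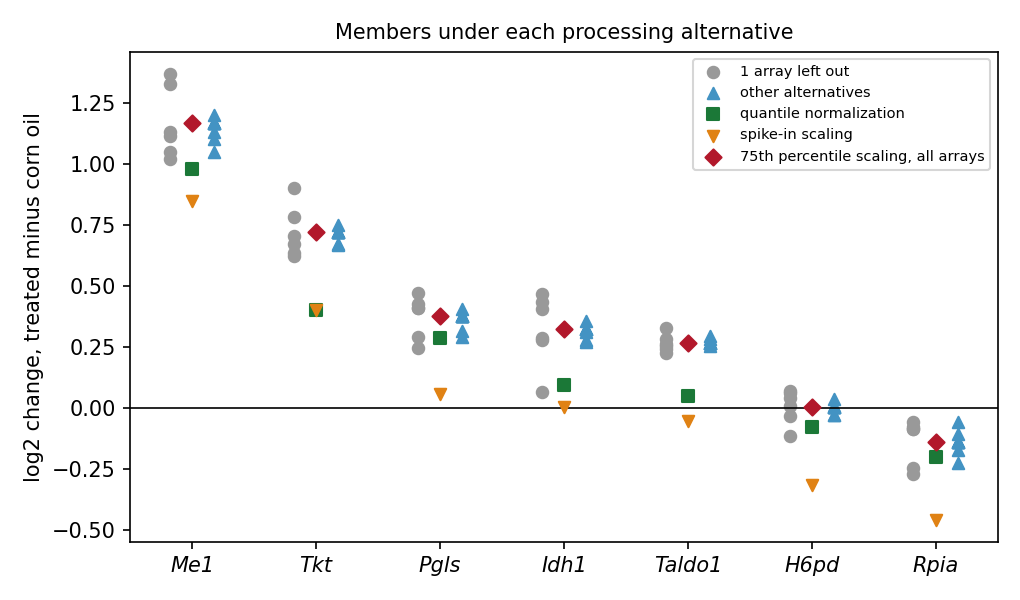
Log2 change, treated minus corn oil (vertical axis), of each gene (horizontal axis) in the main setting (red diamonds), with quantile normalization (green squares), with spike-in scaling (orange triangles), with 1 array left out (grey) and under the other alternatives (blue). Me1 stays between 0.85 and 1.37 and Tkt between 0.40 and 0.90, while Taldo1 reaches -0.05 and H6pd lies on both sides of 0.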

How the data were processed

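Single-colour (Cy3) Agilent arrays of 6 rat renal cortex samples, 3 per group, were analysed. Per the file headers, the authors deposited intensity values extracted with Agilent Feature Extraction 10.7.1.1, with the processed intensity background-subtracted by that software on a linear scale, and flags for probes well above background, saturated or outlying. The authors' deposited value table holds each intensity as a ratio to the 75th percentile of its array, as found by comparison with the scanner values; its columns match scanner files of the right group but of a different replicate number, and replicate numbers here follow the scanner files. The value table was an alternative only.

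From the log2 processed intensity, the log2 of the 75th percentile of the array's 61657 non-control probes was subtracted. After removal of 64 outlying probes, 40894 remained that exceeded background in every array of 1 or both groups. Names came from RefSeq accessions and a table of the GRCr8 assembly (27460 probes, 15284 genes); the arrays were annotated on rn4, so no probe coordinates are given. Promoter sequences are RefSeq's. The brightest kept probe stood for a gene, and 11748 genes were fitted with lmFit and eBayes (limma 3.58.1, R 4.3.3; 4 residual and 2.21 prior degrees of freedom), with Benjamini-Hochberg adjustment over all of them. The number of arrays limits the precision. The genes and lists were chosen with earlier results of these data known. Named were all listed genes, up to 4 of each other list by lowest p among those with an unadjusted p under 0.05 and no overlap, 11 fixed genes, and the 5 most alike in profile. Same-numbered arrays of the groups did not deviate together (r 0.01, -0.05 and -0.03).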

Additional observations from a re-analysis of the deposited data

How the results depend on the processing

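None of the 7 genes passed at an adjusted p under 0.05 in the main setting, and 1 (Tkt) did in 1 of 17 alternatives, without treated replicate 2; leaving out 1 array gave 0 to 1 passing genes, with changes of 0.62 to 0.90 for Tkt and 1.02 to 1.37 for Me1. Me1, Tkt, Pgls and Idh1 kept a positive sign and Rpia a negative sign in all settings run. H6pd was -0.026 after normexp correction (offset 50), -0.079 after quantile normalization, -0.31 after spike-in scaling (7 probes), -0.027 with the mean over probes and -0.11 to 0.069 with 1 array left out. Spike-in scaling, which put the median of all genes at -0.28, gave -0.054 for Taldo1, -0.0053 for Rbks, -0.053 for Akr1a1, -0.042 for Fbp1, -0.091 for Slc25a1, -0.18 for Idh2, -0.13 for Hsd11b1, -0.20 for Slc37a4 and -0.31 for Nfe2l2. Quantile normalization gave -0.012 for Akr1a1, -0.17 for Idh2, -0.047 for Hsd11b1, -0.18 for Slc37a4 and -0.16 for Nfe2l2, and normexp gave -0.02 for Nfe2l2. With 1 array left out, Rpe ranged from -0.15 to 0.087, Nnt from -0.13 to 0.0014 and Nfe2l2 from -0.020 to 0.041. The median over the 7 genes was 0.10 after quantile normalization, 0.0046 after spike-in scaling and 0.24 to 0.47 with 1 array left out. The count higher at an unadjusted p under 0.05 was 1 after quantile normalization, 1 after spike-in scaling and 2 to 4 with 1 array left out (2 without treated replicate 3, corn oil replicate 1 or corn oil replicate 3). Of all genes, 3 passed in the main setting, 56 after normexp, 9 after spike-in scaling, 69 with trend and robust settings, 0 without a filter on dim probes, 0 with the slide as a block, 0 with the mean over probes, 132 at an adjusted p under 0.1, and 0 to 70 with 1 array left out (0 without any 1 corn oil array, 21, 70 and 2 without treated replicate 1, 2 and 3). Where the count was 0, limma at an unadjusted p under 0.05 had 2696 genes higher and 800 lower without a filter, 1124 and 640 with the slide block, 1422 and 1021 with the mean over probes, 1347 and 774 with the replicate block, and 999 to 1125 higher and 534 to 640 lower without 1 corn oil array. Genes higher in treated rats made up 66.2% of those at an unadjusted p under 0.05, 78.0% after normexp, 46.3% after quantile normalization, 4.68% after spike-in scaling and 77.1% with no filter. The replicate numbers share only a number, and the replicate block gave 0 genes and the same changes, with an adjusted p of 0.224 for Me1 and 0.243 for Tkt. The cause of these differences was not tested. With the slide as a block, which is the same as leaving out corn oil replicate 2, Me1 was 1.05 and Tkt 0.67.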
